A study of Saccharomyces cerevisiae with 4 samples.

Results

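The genes described here encode the later-numbered proteins of the yeast large (60S) ribosomal subunit, RPL21 to RPL43, and the 5 proteins of its acidic stalk, RPP0, RPP1A, RPP1B, RPP2A and RPP2B. They were chosen by identifier from a list of 44 genes. The count table held 42 of them, out of 4970 counted regions, and RPL21A and RPL29 were not analysed here. Among the 42 genes were 17 paralogue pairs with both copies counted and 8 genes with no counted paralogue.

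RNA synthesis was followed by 4tU-seq, in which cells take up 4-thiouracil, RNA made during the pulse carries the thiol label, and labelled RNA is purified and sequenced. The Δsyc1 group (2 libraries) was Saccharomyces cerevisiae BY4741, a MATa laboratory strain, with SYC1 replaced by the kanMX drug resistance cassette, and the wild-type group (2 libraries) was BY4741 with SYC1 intact. SYC1 encodes a subunit of APT, a relative of the cleavage and polyadenylation factor that processes mRNA 3′-ends, and the comparison asked which transcripts are made at a different level without it. Both groups were grown in rich medium (YPD) at 30 °C to an OD600 of 0.8 and were labelled for 6 min with 4-thiouracil at 5 mM, and 100 ng of RNA went into every library. The labels name no second Δsyc1 clone and no strain in which SYC1 was put back.

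A ribosome needs each of its proteins in one copy, apart from the stalk, which carries several P proteins, so cells make ribosomal proteins in near-equal numbers and adjust all of their genes together to growth and nutrients. In yeast most of these genes survive as duplicated pairs, many carry an intron, and their promoters commonly bind Rap1 and the forkhead factor Fhl1, with Ifh1 as coactivator and Crf1 as corepressor of Fhl1. The stalk sits on the P0 protein and recruits the GTPase translation factors through the acidic P1 and P2 proteins, which bind P0 as the preferred dimers P1A with P2B and P1B with P2A.

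The libraries held 26089573 and 22880058 counts in Δsyc1 and 36175417 and 35203133 counts in wild-type. SYC1 had 1 and 2 counts in Δsyc1, against 743 and 794 counts in wild-type. Of the markers of BY4741, LEU2, URA3 and MET17, which this strain lacks, had 0 counts in all 4 libraries. STE2, the α-factor receptor of MATa cells, had 312 and 287 CPM (counts scaled to library size with TMM factors) in Δsyc1, against 735 and 723 CPM in wild-type. The sources used here name no external RNA standard and none entered the scaling, so each change is relative to the other RNAs of the library, and in bulk cultures fewer cells making an RNA and less of it per cell cannot be told apart.

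Across the 42 genes, newly made RNA was lower in Δsyc1 for 16 genes and higher for 0 by edgeR's quasi-likelihood test with Benjamini-Hochberg adjustment over 4845 genes (a fold change over 1.5 at an adjusted p under 0.1). Of all genes tested, 8.15% were called lower and 9.08% higher by this rule. The median log2 fold change (Δsyc1 over wild-type throughout) was -0.45 over the 42 genes, with quartiles of -0.82 and -0.12, and -0.02 over all genes tested. The log2 fold change was negative for 36 of the 42 genes, and for 2499 of the 4845 genes tested. With no minimum on the fold change, 29 of the 42 genes were below and 4 above at the same adjusted p. By that rule 1719 of the 4845 genes tested were below and 1623 above. Both Δsyc1 libraries lay below both wild-type libraries for 30 genes, where 43.2% of all genes tested did so, and above them for 4 genes, where 40.5% of all genes tested did so. For 8 genes the groups overlapped.

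The genes together took 0.356% of all counts (95% Wilson interval 0.354 to 0.358) and 0.398% (0.395 to 0.401) in the Δsyc1 libraries, against 0.507% (0.504 to 0.509) and 0.517% (0.515 to 0.519) in the wild-type libraries. Both Δsyc1 shares were below both wild-type shares, and the mean shares (± SD, n = 2 each) were 0.377% ± 0.0298 in Δsyc1 and 0.512% ± 0.00723 in wild-type. Their ratio was 0.736. An exact permutation test of 2 libraries against 2 gave a two-sided p of 0.333, which is the smallest this design allows. The intervals cover at most the counting error of reads, not the spread between libraries, and reads carried no molecular identifiers. The second Δsyc1 library stood nearer to wild-type than the first: the median log2 difference of the first minus the second was -0.15 over these genes within Δsyc1, against -0.03 within wild-type. Each of the 4 ways of setting 1 Δsyc1 library against 1 wild-type library gave a negative median log2 ratio, between -0.51 and -0.35.

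**Figure D1:**
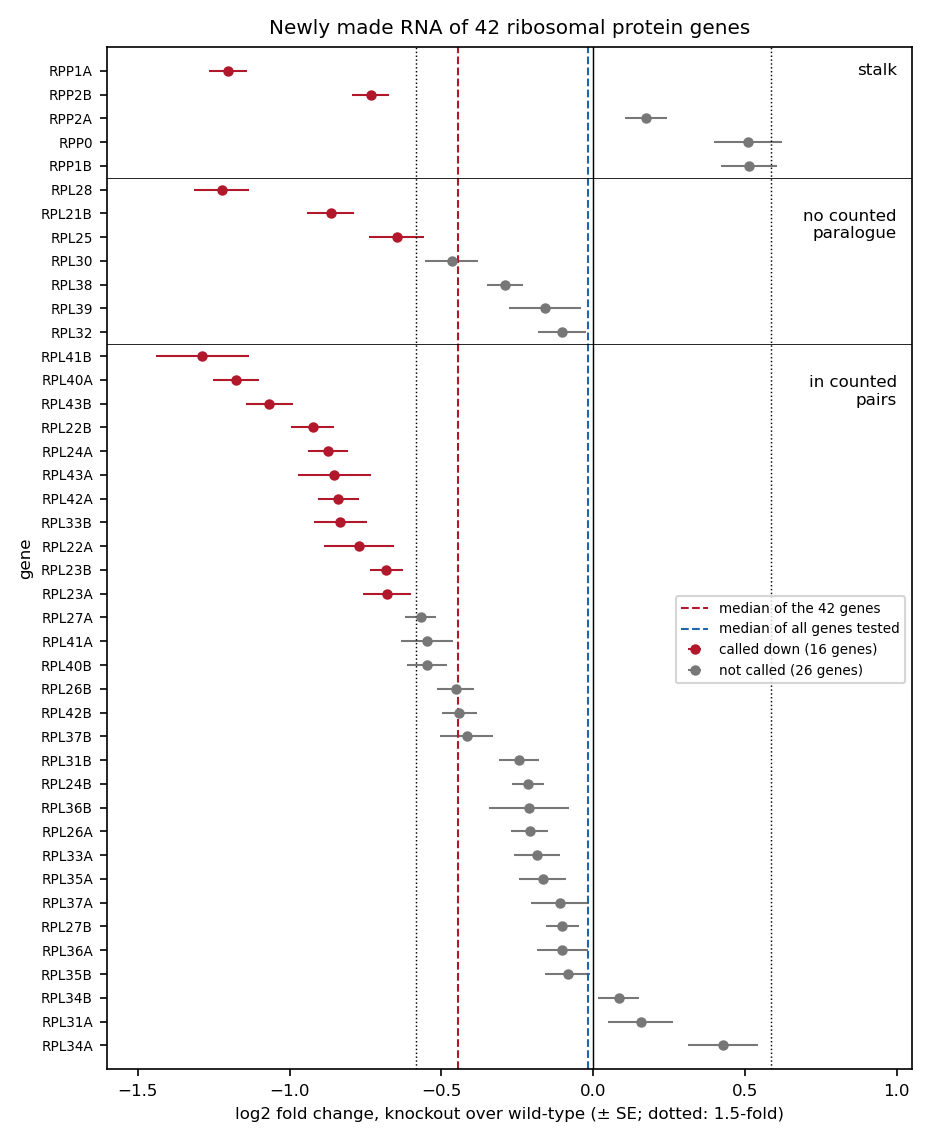
Log2 fold change (x axis, Δsyc1 knockout over wild-type, ± SE) of each of the 42 genes (y axis), grouped as stalk genes, genes with no counted paralogue and genes in counted pairs. Red points are the 16 genes called lower and grey points the 26 genes not called; dashed lines mark the medians of the 42 genes (-0.45) and of all genes tested (-0.02), and most points lie left of 0 while RPP0, RPP1B and RPL34A lie furthest right.

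The stalk genes did not move as a set. Their counted regions on sacCer3 were chrXII:805828-806910 for RPP0 (plus strand), chrIV:309695-310188 for RPP1A (minus), chrIV:229890-230620 for RPP1B (plus, with 1 intron), chrXV:254270-254811 for RPP2A (plus) and chrIV:1239412-1239969 for RPP2B (plus). RPP1A (YDL081C), which encodes a P1 protein, had 70.8 and 77.7 CPM in Δsyc1, against 169.6 and 172 CPM in wild-type. RPP2B (YDR382W), which encodes the P2 protein that pairs with it, had 52.5 and 56.7 CPM in Δsyc1, against 91.0 and 90.3 CPM in wild-type. Both fell without overlap between groups, RPP1A to 0.434 of its wild-type level (log2 fold change -1.20 ± 0.06 SE, adjusted p = 1.53e-06, edgeR) and RPP2B to 0.602 (-0.73 ± 0.06, adjusted p = 2.46e-05). RPP1B (YDL130W), the other P1 gene, had 91.0 and 113 CPM in Δsyc1, against 70.3 and 72.1 CPM in wild-type. RPP2A (YOL039W), the other P2 gene, had 64.7 and 72.5 CPM in Δsyc1, against 60.7 and 60.9 CPM in wild-type. For both genes the Δsyc1 libraries were the higher ones, but the log2 fold changes of 0.51 ± 0.09 for RPP1B (edgeR adjusted p = 0.00156) and 0.17 ± 0.07 for RPP2A (edgeR adjusted p = 0.0547) stayed under the fold minimum.

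RPP0 (YLR340W) encodes P0, the essential base of the stalk, and was the most abundant of these RNAs. It had 719 and 927 CPM in Δsyc1, against 614 and 541 CPM in wild-type. The groups did not overlap, and the log2 fold change of 0.51 ± 0.11 (edgeR adjusted p = 0.00441) was likewise under the fold minimum. Without the first Δsyc1 library, RPP0 (0.68), RPP1B (0.66) and RPL34A (0.61) passed it, so that 3 of the 42 genes were called higher, and without the first wild-type library RPP0 (0.60) alone did.

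**Figure D2:**
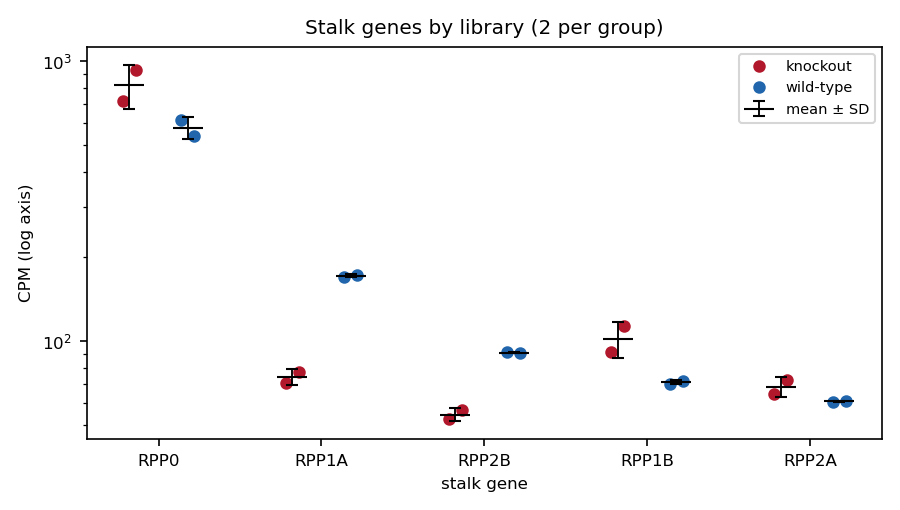
CPM (y axis, log scale) of the 5 stalk genes (x axis) in each library, with Δsyc1 knockout libraries in red left of wild-type libraries in blue, and the mean ± SD of 2 libraries as black bars. RPP1A and RPP2B have lower values in Δsyc1, and RPP0, RPP1B and RPP2A have higher values in Δsyc1.

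The copies of P1 and P2 took different shares of the newly made stalk RNA in the strains. RPP1A made up 43.7% and 40.8% of the summed RPP1A and RPP1B counts in Δsyc1, against 70.7% and 70.5% in wild-type. RPP2A made up 55.2% and 56.1% of the summed RPP2A and RPP2B counts in Δsyc1, against 40.0% and 40.3% in wild-type. In both pairs the copy with the larger share of counts in wild-type had the smaller share in Δsyc1. The counted region of RPP1B (731 bases) is longer than that of RPP1A (494 bases). Per kilobase of region, RPP1A stayed above RPP1B in Δsyc1, with 143 and 157 CPM per kilobase against 125 and 154. RPP2A was above RPP2B in Δsyc1 by this measure as well, with 119 and 134 against 94.1 and 102. The log2 fold change of RPP1A was lower than that of RPP1B by 1.72 (difference -1.72 ± 0.11 SE, 95% interval -1.97 to -1.46), and that of RPP2A exceeded that of RPP2B by 0.91 (± 0.09, 0.69 to 1.12). The sums of the 2 copies had log2 fold changes of -0.46 for RPP1 and -0.30 for RPP2, and neither sum passed the fold minimum.

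Set by dimer partner instead of by paralogue, the genes stood closer. RPP1A and its partner RPP2B differed by -0.47 on the log2 scale (95% interval -0.67 to -0.27), and RPP1B and its partner RPP2A by 0.34 (0.08 to 0.61). Across the partners, RPP1A and RPP2A differed by -1.38 (-1.59 to -1.17) and RPP1B and RPP2B by 1.25 (0.99 to 1.503). All 4 intervals lay off 0, so the log2 fold changes of partners also differed from each other. The 4 differences are built from the same 4 log2 fold changes, so 1 way of crossing the copies had to stand closer. Neither partner pair was over 1.5-fold apart, but of all possible pairs of tested genes only 33.7% were, with a 95% interval off 0. Whether partners change together was not tested.

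Of the other genes with no counted paralogue, RPL28, RPL21B and RPL25 were called lower. RPL28 (YGL103W) encodes the protein in which changes make yeast resistant to cycloheximide. It had 83.5 and 98.9 CPM in Δsyc1, against 226 and 200.2 CPM in wild-type, with no overlap and a log2 fold change of -1.22 ± 0.09 (edgeR adjusted p = 1.13e-05). RPL25 encodes a protein at the rim of the peptide exit tunnel, where targeting factors dock, and had 84.2 and 105 CPM in Δsyc1, against 146 and 149 CPM in wild-type. Its log2 fold change of -0.65 ± 0.09 passed the fold minimum narrowly, and without the first Δsyc1 library it was -0.50 and not called. RPL21B had 45.9 and 52.8 CPM in Δsyc1, against 92.5 and 86.9 CPM in wild-type, a log2 fold change of -0.86 ± 0.08. The Δsyc1 libraries were the lower ones for all 3 genes.

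The remaining genes of this kind were not called. RPL30, whose protein also binds its own transcript and blocks its splicing, had 62.7 and 76.8 CPM in Δsyc1, against 95.2 and 97.2 CPM in wild-type (-0.47 ± 0.09). RPL38 had 105 and 110.3 CPM in Δsyc1, against 128 and 135 CPM in wild-type (-0.29 ± 0.06). In these 2 genes the groups did not overlap. RPL32 had 133 and 159 CPM in Δsyc1, against 157 and 156 CPM in wild-type (-0.10 ± 0.08). RPL39, whose small protein lines the exit tunnel, had 18.6 and 24.4 CPM in Δsyc1, against 24.0 and 23.9 CPM in wild-type (-0.16 ± 0.12). The groups overlapped for RPL32 and RPL39.

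In 3 of the 17 pairs both copies were called lower, in 7 pairs 1 copy was, and in 7 pairs neither copy was called. Of all single genes tested, 8.15% were called lower. In the pairs with 1 call, the uncalled copies RPL24B, RPL33A, RPL40B, RPL41A and RPL42B were also lower, at an adjusted p under 0.1 (edgeR). The uncalled copies RPP1B and RPP2A were higher at that adjusted p. The pairs with both copies called were RPL22, RPL23 and RPL43. RPL22A had 81.6 and 107 CPM in Δsyc1, against 152 and 169 CPM in wild-type (log2 fold change -0.77 ± 0.11). RPL22B had 45.6 and 40.6 CPM in Δsyc1, against 80.4 and 83.3 CPM in wild-type (-0.92 ± 0.07). Neither gene overlapped between groups, and the copies differed by 0.15 (95% interval -0.16 to 0.46), which includes 0.

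RPL23 encodes a protein of the face turned to the small subunit. RPL23A had 45.0 and 52.6 CPM in Δsyc1, against 77.2 and 79.0 CPM in wild-type (-0.68 ± 0.08). RPL23B had 82.2 and 85.5 CPM in Δsyc1, against 135 and 134 CPM in wild-type (-0.68 ± 0.05). The groups did not overlap, and the copies differed by 0.0018 on the log2 scale (-0.22 to 0.22), the smallest difference of the 17 pairs. RPL23A was -0.57 and not called without the first Δsyc1 library.

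RPL43 encodes a small zinc-binding protein. RPL43A had 75.9 and 94.2 CPM in Δsyc1, against 137 and 169 CPM in wild-type (-0.85 ± 0.12). RPL43B had 45.3 and 42.8 CPM in Δsyc1, against 86.4 and 98.3 CPM in wild-type (-1.07 ± 0.08). Every Δsyc1 library was below every wild-type library in both copies, and the interval of their difference (0.21, -0.11 to 0.54) includes 0. With the counts of each pair summed, RPL22 (-0.82), RPL23 (-0.68), RPL40 (-0.78), RPL41 (-0.70) and RPL43 (-0.93) were called lower, 5 of 17 pair sums, where 8.14% of all features in that fit were called lower.

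The log2 fold changes of the 2 copies were over 1.5-fold apart, with a 95% interval off 0, in 6 of 17 pairs (35.3%): RPP1, RPP2, RPL41, RPL24, RPL33 and RPL40. Of all 11734590 possible pairs of tested genes, 33.7% were as far apart by the same rule, so the share of paralogue pairs was near that of any 2 genes. Of 37 pairs of other ribosomal protein genes, 9 (24.3%) were. The median absolute difference was 0.398 over the 17 pairs and 0.397 over the 37 others. The ratio of the 2 copies did not overlap between groups in 12 of 17 pairs, where 83.7% of all pairs of tested genes did not. For each of these 12 pairs the exact two-sided permutation p was 0.333 (n = 2 libraries each), the smallest the design allows.

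**Figure D3:**
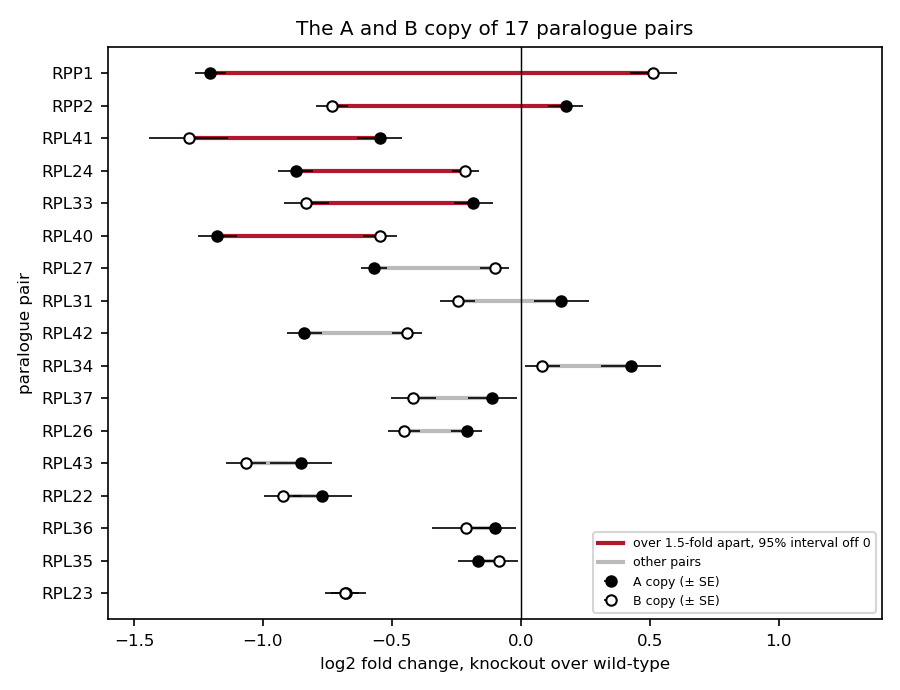
Log2 fold change (x axis, Δsyc1 knockout over wild-type, ± SE) of the A copy (filled) and the B copy (open) of the 17 paralogue pairs (y axis), ordered by the distance between copies. Red bars join the 6 pairs over 1.5-fold apart; RPP1 is the widest, at -1.20 for RPP1A and 0.51 for RPP1B, and in RPL22, RPL23 and RPL43 both copies lie left of -0.58.

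RPL24, RPL33, RPL40 and RPL41 were the pairs outside the stalk whose copies were apart. RPL24 encodes a protein of a bridge between the subunits. RPL24A had 54.5 and 58.4 CPM in Δsyc1, against 107 and 99.5 CPM in wild-type (-0.87 ± 0.07). RPL24B had 128 and 135 CPM in Δsyc1, against 152 and 154 CPM in wild-type (-0.22 ± 0.05). RPL24A was called lower and RPL24B was not called, though both were lower in Δsyc1 with no overlap. RPL24A made up 29.8% and 30.1% of the pair's counts in Δsyc1, against 41.4% and 39.2% in wild-type. The difference was -0.66 (-0.85 to -0.46).

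RPL33A had 123 and 121 CPM in Δsyc1, against 128 and 149 CPM in wild-type (-0.19 ± 0.08). RPL33B had 43.8 and 36.8 CPM in Δsyc1, against 69.3 and 74.6 CPM in wild-type (-0.83 ± 0.09). The B copy, the less abundant of the pair in every library, was called lower. The A copy was not called, though both its Δsyc1 libraries lay below both wild-type libraries (edgeR adjusted p = 0.0597). RPL33A made up 73.7% and 76.7% of the pair's counts in Δsyc1, against 64.9% and 66.7% in wild-type, and the difference was 0.65 (0.38 to 0.91).

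The RPL40 genes encode ubiquitin joined to the N-terminus of a ribosomal protein, so they supply ubiquitin as well as a 60S protein. RPL40A (YIL148W) had 50.7 and 58.7 CPM in Δsyc1, against 121 and 126 CPM in wild-type (-1.18 ± 0.08). RPL40B (YKR094C) had 109 and 123 CPM in Δsyc1, against 174 and 165 CPM in wild-type (-0.55 ± 0.07). RPL40A was called lower, and RPL40B, also lower with no overlap between groups, was just under the fold minimum. The difference was -0.63 (-0.86 to -0.40). The other ubiquitin genes went both ways. RPS31, which fuses ubiquitin to a small subunit protein, had 86.5 and 103 CPM in Δsyc1, against 240 and 233 CPM in wild-type (-1.32 ± 0.08, edgeR adjusted p = 3.39e-06). UBI4, the stress-induced gene of the ubiquitin chain precursor, had 393 and 404 CPM in Δsyc1, against 170.4 and 159 CPM in wild-type (1.27 ± 0.06, edgeR adjusted p = 6.19e-07). Thus RPL40A and RPS31 were called lower and UBI4 higher, and RPL40B was lower (edgeR adjusted p = 0.000194) but not called.

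RPL41 encodes the smallest ribosomal protein, which sits at the interface of the subunits. The coding sequences of its copies, from assembly R64 on the minus strand at chrIV:130407-130484 and chrIV:221724-221801, are shown because they differ in a single base, printed in capitals, so that only reads that cover this base or reach the flanking transcript can tell the copies apart.
RPL41A: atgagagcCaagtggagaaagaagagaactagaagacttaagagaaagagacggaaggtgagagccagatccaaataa
RPL41B: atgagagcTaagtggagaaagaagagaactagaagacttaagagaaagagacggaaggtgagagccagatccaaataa
RPL41A (YDL184C) had 29.9 and 33.0 CPM in Δsyc1, against 48.7 and 43.0 CPM in wild-type (-0.55 ± 0.09). RPL41B (YDL133C-A) had 138 and 149 counts (5.50 and 6.96 CPM) in Δsyc1, against 633 and 506 counts (16.7 and 13.6 CPM) in wild-type (-1.29 ± 0.15, edgeR adjusted p = 0.000166). RPL41B had the fewest counts of the 42 genes and, with TMM scaling and all 4 libraries, the lowest log2 fold change. It was -0.94 with the length offset, where RPL28 was at -1.12 and RPL40A at -1.03, and RPP1A was also lower than RPL41B without the first Δsyc1 library (-1.14 and -1.12) and without the first wild-type library. RPL41A made up 84.5% and 82.6% of the pair's counts in Δsyc1, against 74.5% and 76.0% in wild-type, a difference of 0.74 (0.34 to 1.14).

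The last called gene was RPL42A, from a pair with coding sequences 98.1% identical. The RPL42 protein lies near the exit site of tRNA. RPL42A had 42.9 and 46.5 CPM in Δsyc1, against 82.8 and 77.1 CPM in wild-type (-0.84 ± 0.07). RPL42B had 94.2 and 94.5 CPM in Δsyc1, against 124 and 132 CPM in wild-type (-0.44 ± 0.06). The groups did not overlap in either copy, and the difference was -0.40 (-0.60 to -0.19).

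Of the genes in pairs with no call, RPL34A was the one with both Δsyc1 libraries above both wild-type libraries. It had 124 and 162 CPM in Δsyc1, against 99.9 and 113 CPM in wild-type (0.43 ± 0.12). Its paralogue RPL34B (0.08 ± 0.07) and RPL31A (0.16 ± 0.11) overlapped between groups, as did RPL35B, RPL36A, RPL36B and RPL37A, whose log2 fold changes lay between -0.21 and -0.08. In the pairs of the exit tunnel rim, RPL26 (-0.21 for the A copy and -0.45 for the B copy), RPL31 (0.16 and -0.25) and RPL35 (-0.17 and -0.08), no gene was called. RPL27A (-0.57 ± 0.05) lay just above the fold minimum of -0.58 on the log2 scale, and its copy RPL27B was at -0.10 ± 0.05.

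Reads that map to both copies of a pair were dropped by the mapping filter, so counts of near-identical copies are uncertain. The coding sequences of the pairs were 70.7% (RPP1) to 99.2% (RPL35) identical. More than 10% of the region's 50-mers were repeated elsewhere in the genome for 6 genes, both copies of RPL35, RPL41 and RPL42. Of these 6 genes 2 were called lower (median -0.49), and of the other 36 genes 14 were called lower (median -0.43). The stalk genes had no repeated 50-mer.

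Levels were compared between genes per kilobase of counted region, in CPM per kilobase. RPP0 was highest, with means of 760.0 in Δsyc1 and 534 in wild-type. RPP1A came next in wild-type, with 150.3 in Δsyc1 and 346 in wild-type, followed by RPL38, with 216 in Δsyc1 and 264 in wild-type. In wild-type RPL39 was lowest (28.8 in Δsyc1 and 32.0 in wild-type), then RPL41B (21.0 in Δsyc1 and 51.1 in wild-type) and RPL36A (55.3 in Δsyc1 and 59.2 in wild-type). Across the 42 genes the log2 fold change had a Spearman correlation of 0.47 with the level in Δsyc1 and of -0.17 with the level in wild-type, both of which enter the fold change itself.

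Genes called lower were found with and without an intron. Of 32 genes with an intron 12 were called lower (median -0.45), and of 10 without an intron 4 were (median -0.42). The counted regions span whole transcripts, introns included. For 8 genes the region overlapped that of a gene on the other strand, with 2 called lower, and 14 of the other 34 were called lower. Among the overlapping genes were RPL40A (9.89% of its region, with SLN1), RPP2A (13.3%, with YOL038C-A) and RPP2B (15.1%, with NKP1). Whether reads were counted by strand is not given in the sources used here, so these counts may include reads of the partners.

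Short transcripts had lower fold changes in this comparison as a whole. Over 4802 mRNAs tested, the log2 fold change had a Spearman correlation of 0.33 with region length, and the 42 genes had regions of 296 to 1124 bases (median 901.5), where the median mRNA had 1445.5. With an offset for the trend of each library along length, the median of the 42 genes was -0.24, and 12 genes were called lower, where 5.76% of all genes were. RPL23A (-0.57), RPL23B (-0.55), RPL25 (-0.51) and RPP2B (-0.48) were no longer called. RPP1B (0.72), RPP0 (0.61) and RPL34A (0.59) were called higher, 3 of 42 genes where 9.95% of all genes were. The copies of RPP1 and RPP2 were apart under the offset as well, by -1.64 and 0.91. Within the 42 genes the correlation with length was -0.03. Whether the trend along length comes from library preparation or from the cells was not tested.

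**Figure D4:**
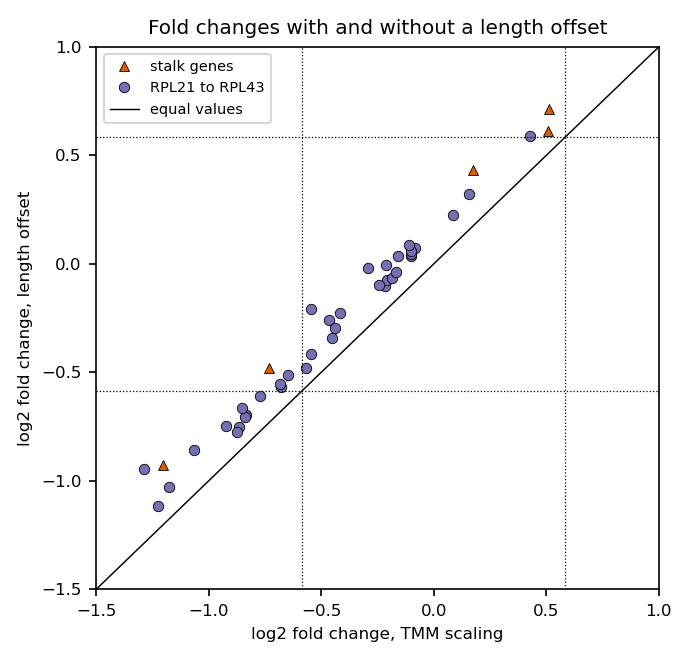
Log2 fold change (Δsyc1 knockout over wild-type) of the 42 genes with TMM scaling (x axis) and with a length offset instead (y axis). Triangles mark the stalk genes and circles the others, dotted lines a fold change of 1.5, and the solid line equal values. All points lie above the line, with the median at -0.45 on the x axis and -0.24 on the y axis.

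The promoters of these genes were searched for ACCCNNACA, a core of the Rap1 binding site, on both strands in the 500 bases before each counted region. It was present upstream of 23 of the 42 genes (54.8%), 34 of 88 other ribosomal protein genes (38.6%) and 285 of 4909 counted mRNAs (5.81%). The matches of 7 genes are shown with the motif in capitals and 20 bases on either side, because they include the gene outside a pair with the lowest log2 fold change, both copies of RPL33, and the matching copy of 4 of the pairs in which a single copy held a match. They are read 5′ to 3′ along the gene's strand of assembly R64, from chrVII:310683-310731 (plus strand), chrXVI:281748-281796 (plus), chrXV:779847-779895 (minus), chrXI:618965-619013 (minus), chrIV:222117-222165 (minus), chrX:607996-608044 (plus) and chrIV:229612-229660 (plus), in the order given.
RPL28: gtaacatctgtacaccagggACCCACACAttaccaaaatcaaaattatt
RPL33A: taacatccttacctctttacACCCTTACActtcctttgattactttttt
RPL33B: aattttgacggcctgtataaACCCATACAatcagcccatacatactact
RPL40B: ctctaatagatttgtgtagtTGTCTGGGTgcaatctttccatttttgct
RPL41B: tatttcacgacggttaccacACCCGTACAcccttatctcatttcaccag
RPL43B: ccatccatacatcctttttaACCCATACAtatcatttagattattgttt
RPP1B: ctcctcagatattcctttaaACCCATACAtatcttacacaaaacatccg
Genes called lower were found with and without a match. Of 23 genes with a match 8 were called lower (median -0.29), and of 19 without one 8 were (median -0.55). In RPL33 both copies held a match, and RPL33B (-0.83) was called lower while RPL33A (-0.19) was lower but not called. Where a single copy held a match and a single copy was called, the called copy was the one without a match in RPL40, RPL42 and RPP1 and the one with a match in RPL41. A single copy also held a match in RPL22, RPL27 and RPL43. The copy with a match was the higher one in RPL27 (-0.10 against -0.57). It was the lower one in RPL22 (-0.92 against -0.77) and RPL43 (-1.07 against -0.85). The intervals of the last differences, A minus B, were -0.16 to 0.46 and -0.11 to 0.54. Whether a match goes with the fold change was not tested. A match is a description of letters and not a bound site.

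Some genes share an upstream region with another ribosomal protein gene on the other strand. RPL24A and RPL30 start 595 bases apart and had log2 fold changes of -0.87 and -0.47. RPL39 (-0.16) lies 589 bases from RPS22A (-0.57), and RPP2A (0.17) lies 640 bases from RPS15 (-0.24), a small subunit gene. RPL39, RPS22A, RPP2A and RPS15 were not called.

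The log2 fold change was negative for 72 of the 88 other ribosomal protein genes and positive for 16, and most were not called. Of 34 genes from RPL1 to RPL20, 7 were called lower and 0 higher (median -0.28), and of 54 small subunit genes 17 were called lower and 3 higher (median -0.32). Of these 88 genes 24 were called lower, 3 higher and 61 not called, where 8.15% of all genes were lower and 9.08% higher. With the length offset 20 were called lower and 4 higher, where 5.76% and 9.95% of all genes were, with a median of -0.16 over the 88. RPS17B (-1.52 ± 0.07) and RPL10 (-1.36 ± 0.09) fell most among the 88, and RPS11B (1.53 ± 0.12) and RPS11A (0.72 ± 0.17) rose most. The median of the 42 genes described here was lower than that of these 88 (-0.28), but the difference between the lists was not tested.

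Of 14 listed regulators of ribosomal protein genes, 10 were tested. Among them 0 were called lower and 2 higher (median 0.09), where 8.15% and 9.08% of all genes tested were. CRF1, the corepressor that competes for Fhl1, had 75.3 and 81.8 CPM in Δsyc1, against 18.5 and 15.4 CPM in wild-type, a log2 fold change of 2.21 ± 0.09 (edgeR adjusted p = 5.65e-07). DOT6, a repressor of ribosome biogenesis genes, had 415 and 434 CPM in Δsyc1, against 260.0 and 285 CPM in wild-type (0.64 ± 0.06, edgeR adjusted p = 4.71e-05). Both rose with no overlap between groups. TOD6, a repressor related to DOT6, had 141 and 121 CPM in Δsyc1, against 183 and 197 CPM in wild-type (-0.53 ± 0.08, edgeR adjusted p = 0.000493), without overlap and not called. With the length offset DOT6 (0.54) was no longer called and TOD6 (-0.59) was called lower. That left 1 regulator called lower and 1 higher, where 5.76% and 9.95% of all genes were. The activators RAP1 (-0.35 ± 0.05), FHL1 (-0.06 ± 0.05) and HMO1 (0.15 ± 0.06) and the kinase gene SCH9 (-0.36 ± 0.05) were also not called, and IFH1, SFP1, TOR1 and TOR2 were not analysed here.

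Of 18 listed factors that build or release the 60S subunit, 17 were tested, 2 were called lower, where 8.15% of all genes were, and 0 higher (median -0.27). They were REI1, which recycles export factors in the cytoplasm (-0.77 ± 0.07), and TIF6, which keeps immature 60S subunits from joining the small subunit (-0.60 ± 0.06). With the length offset TIF6 (-0.48) was no longer called. Then 1 of the 17 was called lower, where 5.76% of all genes were, and their median was -0.12. MRT4, whose protein holds the place of P0 in immature subunits, and YVH1, whose protein releases it, had log2 fold changes of -0.27 ± 0.07 and -0.33 ± 0.06 and were not called.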

How the data were processed

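Newly synthesized RNA of 2 Δsyc1 and 2 wild-type libraries was analysed, and the titles gave groups and replicate numbers. To make the counts, the authors mapped read pairs with STAR 2.3.0 (genome build sacCer3), removed alignments of mapping quality under 7 and improper pairs with SAMtools, and ran HTSeq over transcripts whose ends came from isoform sequencing. The deposited table holds these raw counts. A second deposited table holds the authors' own comparison by DESeq2 and was not used. The labels name the NUGen Ovation Universal RNA-Seq System for library preparation. The strand setting of the counting is not given in the sources used here. The study calls its libraries biological replicates, and no label names separate clones, so p-values measure the spread between these libraries.

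The 42 genes, the other gene lists and the tests were chosen with earlier results of these data known. Genes with a mean normalized count of at least 30 in either group were kept (4845 of 4970, and all 42 genes passed). Counts were scaled by TMM and tested in edgeR 4.0.16 (R 4.3.3) with group as the only term. A gene was called when its fold change exceeded 1.5 and its Benjamini-Hochberg adjusted p was under 0.1. The SE is the log2 fold change divided by the square root of the F statistic. A difference between 2 copies is the difference of their log2 fold changes, with a 95% interval from both SEs, and the fit treats the copies as independent. The length offset was a loess fit (span 0.5) of each library's log2 CPM deviation on log2 region length. It was used with total counts in place of TMM factors. The coordinates, sequences, 50-mers and the motif search used the RefSeq genome of assembly R64, inside whose chromosomes all 4970 regions lay, and 4887 identifiers matched its gene table. The scripts were tested on simulated data.

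Genes were named by rule: SYC1, every called gene, both copies of pairs over 1.5-fold apart, genes with no counted paralogue, the stalk genes, the 3 highest and 3 lowest per kilobase, and for other lists the 2 largest rises and falls among called genes. RPL22, RPL23, RPL42 and RPL43 are described as pairs through their called copies. The other genes named, among them RPL34A, RPL27A, MRT4, YVH1 and the uncalled regulators, were added after their values were seen. The alternatives tried were DESeq2 1.42.0 size factors and Wald test, no scaling factors, upper-quartile factors, other filters, no fold minimum, a test against a 1.5-fold change (glmTreat), the replicate number as a block, the length offset, pairs summed, genes with repeated sequence left out, and each library left out.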

Additional observations from a re-analysis of the deposited data

How the results depend on the processing

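With 2 libraries per group, 1 library can decide a call near the fold minimum, and without scaling to an external RNA a shift common to all mRNAs cannot be seen. The count of 16 genes called lower became 29 with no fold minimum and 8 of 25 features with pairs summed. Without scaling factors it was 22, and with upper-quartile factors 19. Under glmTreat it was 12, where RPL22A, RPL23A, RPL23B and RPL25 were not called. It was 12 with the length offset, 12 with the length offset and a replicate block, and 15 to 19 with 1 library left out. The count of 0 genes called higher became 3 under the length offset, 2 under the length offset with a replicate block, 4 with no fold minimum, and 0 to 3 with 1 library left out. The DESeq2 Wald test called 16 lower and 0 higher. The median of -0.45 was -0.60 without scaling factors, where the median of all genes was -0.17, -0.53 with upper-quartile factors, where that of all genes was -0.10, and -0.24 with the length offset, also with a replicate block added. The 5 pair sums called lower became 8 without scaling factors, 13 with no fold minimum and 3 each by glmTreat, with the length offset, and with that offset plus a replicate block. The 6 pairs over 1.5-fold apart were 5 to 7 with 1 library left out.

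Some small values changed sign. Under the length offset they were RPL32 (0.045, and 0.039 with a replicate block), RPL35B (0.071 and 0.074), RPL27B (0.035 and 0.036), RPL39 (0.035 and 0.029), RPL37A (0.088 and 0.082), RPL36A (0.060 and 0.057) and RPL23A minus RPL23B (-0.017 and -0.019). RPL34B was -0.070 without scaling factors and -0.0013 with upper-quartile factors. With 1 library left out the values ran from -0.24 to 0.020 for RPL32, -0.040 to 0.33 for RPL31A, -0.17 to 0.013 for RPL35B, -0.37 to 0.028 for RPL39, -0.26 to 0.026 for RPL37A, -0.23 to 0.013 for RPL36A and -0.49 to 0.020 for RPL36B. The differences of A minus B ran from -0.13 to 0.43 for RPL22, -0.084 to 0.084 for RPL23, -0.22 to 0.048 for RPL35 and -0.0069 to 0.26 for RPL36. Both copies of RPL22 and RPL23 were called lower, and the other genes of this paragraph were not called. The cause of these changes was not tested.

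Same-numbered libraries did not deviate together (r = -0.18 over all genes tested and -0.15 over the 42 genes), so the numbers were not taken to pair the libraries. With the replicate block 16 genes were called lower and 0 higher, with a median of -0.45, and RPL23A minus RPL23B was -0.0001. With crossed numbers, chosen after seeing the data, the counts were also 16 and 0.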
